A study of Mus musculus with 8 samples.

Results

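Homeobox genes outside the Hox clusters were followed in E14 cells, a feeder-independent mouse embryonic stem cell (ESC) line, after stable depletion of Kdm2b. The genes were taken by name alone, as every symbol made of 1 of 14 family prefixes (Lhx, Nkx, Dlx, Irx, Emx, Otx, Msx, Gsx, Vax, Barx, Hmx, Meis, Pbx and that of the family of Six4) and a number. Of 63 such symbols, 60 were analysed here, out of 19938 genes read by a probe set that names the gene alone, and each of the 60 was read by 1 probe set. The knockdown group held 4 arrays of E14 cells carrying an shRNA against Kdm2b (passages 27, 28, 29 and 30). The control group held 4 arrays of E14 cells carrying a scrambled shRNA (passages 28, 29, 30 and 31). Both groups were infected with a lentiviral vector, selected in puromycin and grown in medium with LIF, and their RNA was measured on Affymetrix gene-level arrays. Each group rests on a single shRNA sequence, and whether its samples trace back to a single clone is not stated, so that p-values reflect sample spread alone and carry nothing on other shRNAs.

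A homeodomain is a DNA binding fold of 3 helices, and the genes that encode it set position and cell identity in the embryo. Most families studied here act in the nervous system, sense organs, limbs and face, whereas Meis and Pbx proteins are broadly used cofactors that bind DNA together with Hox and other homeodomain proteins. In ESCs most genes of this kind are silent or weakly transcribed and carry polycomb marks at CpG islands. KDM2B binds non-methylated CpG dinucleotides through its ZF-CxxC domain and belongs to a polycomb repressive complex of the PRC1 type, which places ubiquitin on histone H2A. The comparison therefore asked how these developmental regulators behaved when KDM2B was reduced.

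Kdm2b was lower on every knockdown array than on any control array. The log2 signal of Kdm2b averaged 9.04 ± 0.33 in knockdown cells and 11.09 ± 0.26 in control cells (SD, n = 4 each), which is -2.05 in log2 fold change (standard error of the difference, SE, 0.18, limma adjusted p = 0.000891). The deposited values are log2 signals made with RMA, which gives the arrays nearly the same distribution, and array medians lay between 8.47 and 8.53. ESC markers were bright on all arrays, with a mean log2 signal over 10 markers of 13.18 to 13.21 in knockdown and 12.91 to 13.09 in control cells. These ranges did not overlap, and the median log2 fold change was 0.19. At an unadjusted p under 0.05 in limma, 6 of the 10 were higher and 0 lower. Fgf4 alone passed the adjusted p (limma, 0.0238), short of 1.5-fold. Over 9 neural markers the mean was 8.54 to 8.66 in knockdown and 8.85 to 9.10 in control cells, and 2 of the 9, Neurod1 and Pax6, were at least 1.5-fold lower at a limma adjusted p under 0.05. An unadjusted p under 0.05 in limma was found for 4 lower and 1 higher neural markers, and the median log2 fold change was -0.09. Tubb3, Sox1, Dcx and Neurog2 lay above 0, at 0.29, 0.18, 0.09 and 0.08. The means of primitive endoderm markers (8.74 to 9.02 against 8.73 to 8.89), mesoderm markers (8.67 to 8.92 against 8.56 to 8.91) and fibroblast markers (8.15 to 8.44 against 8.06 to 8.46) overlapped between knockdown and control arrays. Among the 7 primitive endoderm markers, limma gave an unadjusted p below 0.05 to 4 that rose and 1 that fell. Their median log2 fold change was 0.22. Sox7 rose by 0.40 and passed the adjusted p (limma, 0.0279), short of 1.5-fold. Sox7 missed it over passages 28 to 30 alone (0.136) and without some single arrays (up to 0.0827). These counts were 3 and 1 for fibroblast markers (median 0.05) and 1 and 0 for mesoderm markers (median 0.08). Trophoblast markers averaged 9.02 to 9.41 in knockdown and 9.36 to 9.71 in control cells. Krt8 was the 1 of 7 that was at least 1.5-fold lower at a limma adjusted p under 0.05. At an unadjusted p under 0.05 in limma, 2 of the 7 were lower and 0 higher, with a median log2 fold change of -0.14. Thy1 was the 1 of 9 fibroblast markers that was higher by both the adjusted p and the 1.5-fold limit. None of the 10 ESC, 7 primitive endoderm and 6 mesoderm markers passed both limits. With the replicate number as a block, Nes (neural) and Krt18 (trophoblast) were also lower by these limits, as was Dab2 (primitive endoderm), and Eomes (mesoderm) was higher (limma adjusted p = 0.0376, 0.0287, 0.0382 and 0.0491). Pax6 missed the adjusted p without knockdown replicate 2 or 4 or control replicate 2 (0.0619 to 0.0683) and over passages 28 to 30 alone (0.0697), and Krt8 without knockdown replicate 2 or 4 or control replicate 4 (0.0572 to 0.0629). In bulk RNA, fewer cells of a type and less RNA per cell cannot be told apart, and the part that these markers play in the homeobox values was not tested.

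Few of the homeobox genes changed by a large amount. A gene was called when its probe set had an adjusted p under 0.05 (limma, adjusted over all 35556 probe sets) and changed at least 1.5-fold, the rule of the study's methods. In knockdown cells 1 of 60 genes, Vax2, rose by this rule and 1 of 60, Nkx2-9, fell, which is 1.67% in each direction against 1.42% higher and 1.43% lower (2.85% either way) among all genes. The adjusted p alone was passed by 4 genes that rose (6.67% against 5.75% of all genes) and by 1 that fell (1.67% against 4.55%). The 3 that passed it without reaching 1.5-fold were Gsx2, Gsx1 and Pbx3. An unadjusted p under 0.05 was found for 10 genes with a higher and 2 with a lower signal, or 16.7% and 3.33%, against 16.8% and 13.6% among all genes (30.4% of all genes either way, against 12 of the 60).

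**Figure D1:**
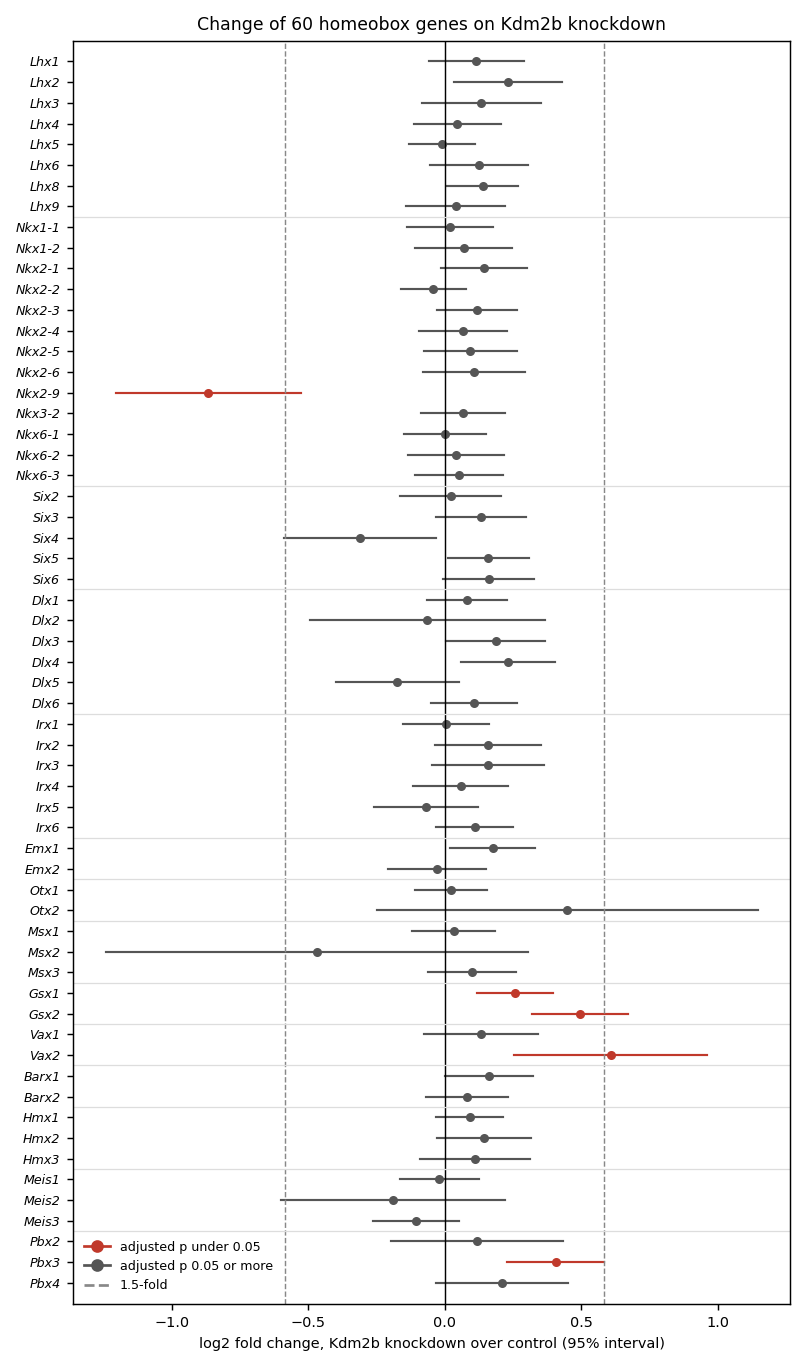
Log2 fold change of each of the 60 homeobox genes, Kdm2b knockdown over control, with its 95% confidence interval from limma (n = 4 arrays per group), ordered by family. Red genes had an adjusted p under 0.05 and dashed lines mark 1.5-fold. Nkx2-9 at -0.87 and Vax2 at 0.61 are the only points beyond the dashed lines. Of the 60 intervals, 53 lie wholly between these lines, a share that was not counted over all genes.

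Over the 60 genes the log2 fold change was above 0 for 48 (80.0%), against 61.7% of all genes, and its median was 0.10, against 0.05 over all genes. For 53 genes the 95% confidence interval lay wholly within 1.5-fold in both directions, a share that was not counted over all genes. The other 7 were Nkx2-9, Vax2, Gsx2, Otx2, Msx2, Six4 and Meis2. Fold changes of weakly hybridizing probe sets are compressed in RMA values, and the mean signal of 26 of the 60 genes was under the median of all probe sets (8.49), so that such intervals bound the array signal rather than the transcript.

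Nkx2-9, a gene of the ventral neural tube that acts there beside Nkx2-2, showed the largest change. Knockdown arrays 1 to 4 read 9.29, 9.33, 9.79 and 9.47 in log2 signal, against 10.03, 10.38, 10.65 and 10.30 on control arrays 1 to 4. All knockdown arrays were below all control arrays, with knockdown replicate 3 closest to the controls. The signal fell by 45.1%, a log2 fold change of -0.87 (SE 0.15, 95% confidence interval, CI, -1.21 to -0.53, limma adjusted p = 0.0135). This fall passed the adjusted p without any 1 of the 8 arrays, at 0.00694 to 0.0494, and did not pass when passages 28 to 30 alone were compared (log2 fold change -0.82, limma adjusted p = 0.0808). That fit used fewer arrays, with passage as a block that put arrays of different replicate numbers together. It called 160 genes in all by the gene rule, against 569 with all arrays.

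In the main fit no other gene of the Nkx families passed the adjusted p, while Nkx2-1 did with array weights (log2 fold change 0.19). The 13 measured genes had a median log2 fold change of 0.07, and without Nkx2-9 they ran from -0.04 for Nkx2-2, which specifies ventral interneurons of the spinal cord, to 0.14 for Nkx2-1, a regulator of lung, thyroid and ventral forebrain. Nkx2-1 lies next to Nkx2-9 on chromosome 12 in the RefSeq order of protein-coding genes. The difference between their changes, Nkx2-1 minus Nkx2-9, was 1.01 on the log2 scale (two-sided exact permutation test over the 8 arrays, p = 0.0286, the smallest that 4 against 4 arrays allow, and 0.0629 when adjusted over the 11 neighbouring pairs compared). With arrays paired by replicate number, exact sign flips gave p = 0.125, the smallest that 4 pairs allow.

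Such pairs lie side by side in the genome and often share enhancers. Of the 11 pairs of neighbouring homeobox genes, 5 reached the smallest exact p of 0.0286 for an unequal change, and none passed after adjustment (adjusted p = 0.0629 for each of the 5). The same 5 had the same sign in 4 of 4 replicate pairs, as had Irx1 and Irx2 (exact p = 0.125 and adjusted p = 0.229 for each of the 6 by sign flips). Besides Nkx2-1 and Nkx2-9 these were Dlx6 and Dlx5 (log2 fold changes of 0.11 and -0.17), Irx3 and Irx5 (0.16 and -0.07), Irx5 and Irx6 (-0.07 and 0.11) and Nkx2-4 and Nkx2-2 (0.07 and -0.04). For the pairs Dlx3 and Dlx4 (0.19 and 0.23) and Hmx3 and Hmx2 (0.11 and 0.14) the changes differed by 0.04 and 0.03 in size, with exact p of 0.657 and 0.543.

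Gsx2, which patterns the ventral telencephalon, had a log2 signal of 8.47, 8.30, 8.14 and 8.44 in knockdown replicates 1 to 4, against 7.80, 7.88, 7.86 and 7.84 in control replicates 1 to 4. The control arrays lay close together and the groups did not overlap. The rise was 0.49 in log2, or 1.41-fold (SE 0.08, 95% CI 0.32 to 0.67, limma adjusted p = 0.00931). It passed the adjusted p without any 1 array, at 0.00432 to 0.0327, but not over passages 28 to 30 alone (log2 fold change 0.45, limma adjusted p = 0.117).

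Gsx1, its paralogue, which acts in the same regions and in the hypothalamus, moved the same way by less. Knockdown arrays 1 to 4 read 8.72, 8.65, 8.55 and 8.52 in log2 signal, against 8.30, 8.38, 8.33 and 8.40 on control arrays 1 to 4. The groups again did not overlap. Its rise was 0.26 in log2, or 1.19-fold (SE 0.06, limma adjusted p = 0.0379), with an adjusted p of 0.0616 when the replicate number was a block. The adjusted p was passed without knockdown replicate 3 (0.0316) and was missed without any 1 of the other 7 arrays, at 0.0554 to 0.112.

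Vax2, which gives the ventral retina its identity, was the most variable of the genes that rose. Knockdown arrays 1 to 4 read 9.73, 9.37, 8.91 and 9.35 in log2 signal, against 8.86, 8.81, 8.65 and 8.60 on control arrays 1 to 4. Knockdown replicate 3 stood only just above control replicate 1. The signal was 1.52-fold higher in knockdown cells (log2 fold change 0.61, SE 0.16, limma adjusted p = 0.0473), close to both limits of the gene rule. The rise was larger without knockdown replicate 3, at 0.75 (limma adjusted p = 0.00853), and missed the adjusted p without any 1 of the other 7 arrays (0.0629 to 0.124) or over passages 28 to 30 alone (0.209). Vax1, its paralogue of the optic nerve and ventral forebrain, had a log2 fold change of 0.13 (SE 0.09, limma adjusted p = 0.396).

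**Figure D2:**
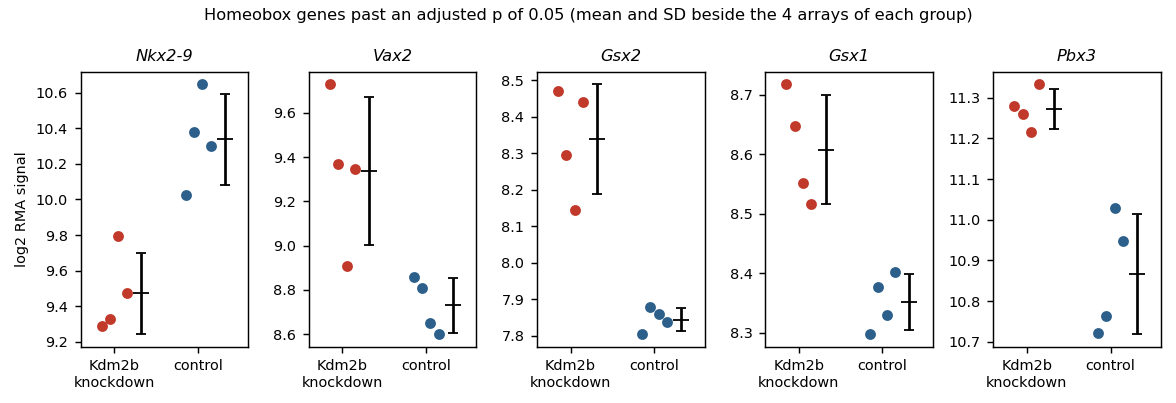
Log2 RMA signal of the 5 homeobox genes with an adjusted p under 0.05 from limma, on each array, with knockdown arrays in red on the left and control arrays in blue on the right of each panel. Bars show the mean and SD of 4 arrays. In all 5 panels the groups do not overlap, and for Nkx2-9, Vax2, Gsx2 and Pbx3 knockdown replicate 3 lies nearest to the controls.

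The promoter sequences of Nkx2-9, Gsx2 and Gsx1 are shown because these genes passed the adjusted p and CpG dinucleotides are what the ZF-CxxC domain of KDM2B reads. Each run is the 250 bases before the transcription start from the RefSeq promoter table (GRCm38.p6), written along the strand of the gene, with every CpG in capitals. Nkx2-9 lies at chr12:56613285-56613534 on the minus strand, Gsx2 at chr5:75075351-75075600 on the plus strand and Gsx1 at chr5:147188446-147188695 on the plus strand.
Nkx2-9: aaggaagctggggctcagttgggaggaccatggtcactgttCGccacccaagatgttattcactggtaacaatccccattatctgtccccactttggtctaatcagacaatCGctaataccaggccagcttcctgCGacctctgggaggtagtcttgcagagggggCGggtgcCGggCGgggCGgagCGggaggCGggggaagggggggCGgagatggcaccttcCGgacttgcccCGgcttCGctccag
Gsx2: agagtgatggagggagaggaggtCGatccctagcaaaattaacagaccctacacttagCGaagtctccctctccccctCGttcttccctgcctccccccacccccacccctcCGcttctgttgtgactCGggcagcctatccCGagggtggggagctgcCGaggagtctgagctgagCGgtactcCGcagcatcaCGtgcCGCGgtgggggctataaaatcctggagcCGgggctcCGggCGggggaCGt
Gsx1: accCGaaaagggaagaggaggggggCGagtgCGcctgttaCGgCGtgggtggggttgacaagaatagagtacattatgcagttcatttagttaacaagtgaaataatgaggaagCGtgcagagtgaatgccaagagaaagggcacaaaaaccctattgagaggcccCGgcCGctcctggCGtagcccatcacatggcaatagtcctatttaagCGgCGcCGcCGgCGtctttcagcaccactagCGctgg
The 3 stretches hold 13, 16 and 15 CpG dinucleotides. In all 3 they gather towards the transcription start at the end of the run, and Gsx1 holds a further group at the beginning of its run.

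CpG dinucleotides were frequent in the promoters of the whole group. A window of 300 bases (250 before and 50 after the start, the first listed for each gene) was matched by symbol for 46 of the 60 genes, Vax2 and Pbx3 being among the 14 without one. The median number of CpG in a window was 20.5 for the homeobox genes, with a range of 2 to 50, against 15 for all 15614 genes on the arrays with a window. A count of 20 or more was found in 24 homeobox promoters (52.2%), against 39.3% of all. The windows of Nkx2-9, Gsx2 and Gsx1 held 15, 17 and 19, below the median of the homeobox group, so that these 3 were not the genes with the most CpG in this window. The 6-letter homeodomain core TAATTA, which reads the same on both strands, stood in the windows of 3 homeobox genes (6.52%), Otx2, Msx2 and Emx2, against 4.33% of all genes.

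**Figure D3:**
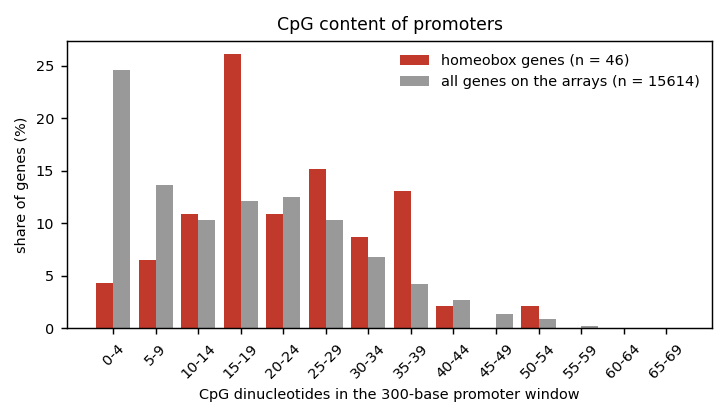
Share of genes by the number of CpG dinucleotides in the 300-base promoter window, for the 46 homeobox genes with a window (red) and the 15614 genes on the arrays with a window (grey). Homeobox genes are fewer than all genes in the classes with under 10 CpG, and their median is 20.5 against 15.

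Dlx4, Lhx2, Emx1 and Dlx3 had an unadjusted p under 0.05 and missed the adjusted p (limma). Dlx4, a member of the Dlx family that also acts outside the nervous system, had a log2 signal of 8.59, 8.46, 8.27 and 8.50 in knockdown replicates 1 to 4, against 8.16, 8.31, 8.21 and 8.20 in control replicates 1 to 4. Only knockdown replicate 3 lay within the range of the controls. The log2 fold change was 0.23 (SE 0.08), which missed the threshold at an adjusted p of 0.0976 (limma). Lhx2, needed for eye and cortex, and Emx1, a gene of the dorsal telencephalon, had log2 fold changes of 0.23 and 0.18 (SE 0.09 and 0.07, limma adjusted p = 0.140 and 0.152). Dlx3, which acts in epidermis and placenta, was at 0.19 (SE 0.08, limma adjusted p = 0.181). Without knockdown replicate 3 the adjusted p was passed by Dlx4, Lhx2 and Emx1, at 0.0224, 0.0167 and 0.0351. With array weights it was passed by Dlx4, Lhx2, Emx1 and Dlx3.

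Among the 8 Lhx genes, which encode LIM homeodomain proteins and act in motor neurons, pituitary and limbs, none passed the adjusted p, and Lhx2 and Lhx8 alone had an unadjusted p under 0.05, both with a higher signal (limma). Lhx8, a gene of cholinergic neurons and oocytes, had a log2 fold change of 0.14 (SE 0.06, limma adjusted p = 0.174). The 8 genes had a median of 0.12. The 6 Irx genes, which lie in 2 clusters on chromosomes 8 and 13 and pattern the neural plate, heart and limbs, ranged from -0.07 for Irx5 to 0.16 for Irx2 (adjusted p of 0.277 and above from limma). Barx1 (stomach and teeth), Hmx2 (inner ear) and Msx3 (dorsal neural tube) had the smallest p of their families, with log2 fold changes of 0.16, 0.14 and 0.10 (SE 0.07, 0.08 and 0.07, limma adjusted p = 0.195, 0.274 and 0.415).

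Six2 to Six6 belong to a family that drives development of muscle, kidney, eye and forebrain. Their log2 fold changes were above 0 except for Six4, and none passed the adjusted p (limma), although Six4 and Six5 did when arrays were weighted. In the weighted fit knockdown replicate 2 had a weight of 4.51, against 0.353 to 1.57 for the other arrays. Six5 had a log2 signal of 8.73, 8.76, 8.72 and 8.72 in knockdown replicates 1 to 4, against 8.70, 8.61, 8.43 and 8.55 in control replicates 1 to 4. The groups did not overlap, but the log2 fold change was 0.16 (SE 0.06, limma adjusted p = 0.166). Without overlap between the groups there were 5 homeobox genes on the higher side (8.33%, against 11.8% of all genes) and 1 on the lower side (1.67% against 9.18%), namely the 5 genes past the adjusted p and Six5.

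Six4, which acts in muscle and kidney, went the other way. Knockdown arrays 1 to 4 read 10.87, 10.54, 10.58 and 10.78 in log2 signal, against 10.67, 11.08, 11.12 and 11.14 on control arrays 1 to 4. Control replicate 1 lay among the knockdown arrays while the other 3 controls lay above all of them. Its log2 fold change of -0.31 (SE 0.12, limma adjusted p = 0.156) became -0.42 without control replicate 1 (SE 0.09, limma adjusted p = 0.0366).

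Among the cofactor genes of the TALE class, only Pbx3 passed the adjusted p in the main fit, with a rise. Pbx3, whose protein binds DNA with Hox and Meis partners, had a log2 signal of 11.28, 11.26, 11.21 and 11.33 in knockdown replicates 1 to 4, against 10.72, 10.76, 11.03 and 10.95 in control replicates 1 to 4. The knockdown arrays lay within a narrow band above all controls. This rise was 0.41 in log2, or 1.33-fold (SE 0.08, 95% CI 0.23 to 0.58, limma adjusted p = 0.0197). The adjusted p was missed without knockdown replicate 2 (0.0614), knockdown replicate 4 (0.0604) or control replicate 2 (0.0574), and over passages 28 to 30 alone (0.105).

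Pbx2 and Pbx4 had log2 fold changes of 0.12 and 0.21 (SE 0.14 and 0.11, limma adjusted p = 0.621 and 0.256). The Meis genes were at -0.02 for Meis1, -0.19 for Meis2 and -0.11 for Meis3 (SE 0.06, 0.18 and 0.07), with adjusted p of 0.870, 0.540 and 0.365 from limma. Meis was the only 1 of the 14 families with a median below 0, at -0.11, although the log2 fold change of Meis1 was above 0 without control replicate 1 (0.00302) or knockdown replicate 3 (0.0196) and those of Meis1 and Meis2 with array weights (0.07 and 0.06).

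Within a group, the same arrays were high or low for many of the homeobox genes. Knockdown replicate 1 was the highest of its group for 46 of the 60 genes (76.7%, against 47.4% of all genes) and knockdown replicate 3 the lowest for 49 (81.7%, against 40.5%). Control replicate 2 was the highest of its group for 33 genes (55.0%, against 29.3%). Control replicate 1 was the lowest of its group for 28 genes (46.7%, against 29.9%) and the highest for 11 (18.3%, against 29.3%). The median signal of the 60 genes was 8.71, 8.72, 8.58 and 8.66 on knockdown arrays 1 to 4, and 8.63, 8.60, 8.56 and 8.51 on control arrays 1 to 4, so that knockdown replicate 3 lay within the range of the controls. Kdm2b itself was highest among the knockdown arrays in replicate 3, at 9.45, and the part of this in the homeobox values was not tested.

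Without knockdown replicate 3, the adjusted p was passed by 10 of the 60 genes, of which 9 rose. Besides Gsx1, Gsx2, Pbx3, Vax2, Dlx4, Lhx2 and Emx1 these were Irx2 and Pbx4, and Nkx2-9 fell. By the gene rule that fit called the same 2 homeobox genes as the fit with all arrays, and 829 genes in all, against 569. How many of all genes passed the adjusted p alone in that fit was not counted, so the 10 have no background share beside them.

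**Figure D4:**
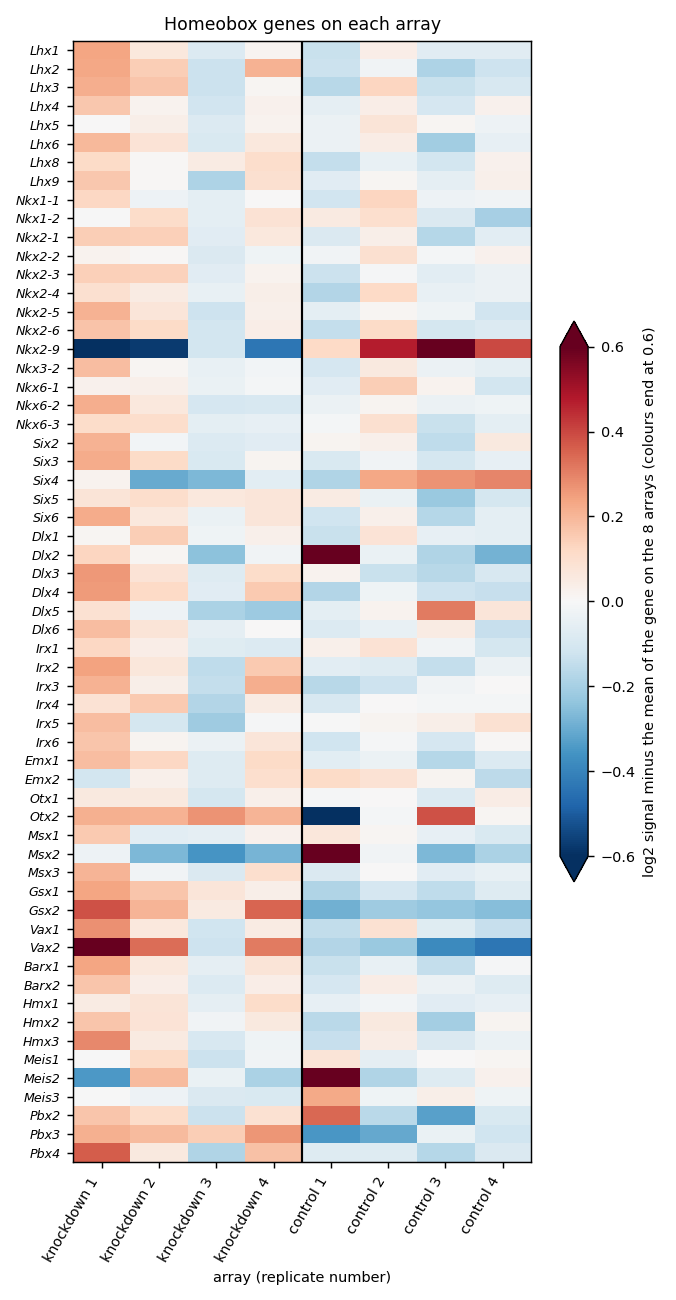
Log2 signal of each of the 60 homeobox genes on each array, relative to the mean of the gene over the 8 arrays, with the 4 knockdown arrays left of the 4 control arrays. Red is above and blue below the mean, with colours ending at 0.6. Knockdown replicate 1 is red for most genes, knockdown replicate 3 is pale or blue, and control replicate 1 holds the strongest colours for Otx2, Msx2, Dlx2 and Meis2.

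For some genes control replicate 1 stood apart from the other controls, in either direction. Otx2, a regulator of the anterior brain that ESCs already express and that rises as they leave naive pluripotency, had a log2 signal of 12.86, 12.86, 12.92 and 12.85 in knockdown replicates 1 to 4, against 11.37, 12.64, 13.03 and 12.66 in control replicates 1 to 4. Control replicate 1 was lower than every other array. The log2 fold change was 0.45 (SE 0.31, 95% CI -0.25 to 1.15, limma adjusted p = 0.390), and 0.10 without control replicate 1 (SE 0.10, limma adjusted p = 0.602).

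Msx2, a target of BMP signalling in skull and limb, showed the opposite. Knockdown arrays 1 to 4 read 8.66, 8.42, 8.33 and 8.41 in log2 signal, against 10.11, 8.67, 8.42 and 8.50 on control arrays 1 to 4. The single high array set its log2 fold change of -0.47 (SE 0.34, limma adjusted p = 0.418), which was -0.07 without that array (SE 0.10, limma adjusted p = 0.686). Dlx2, which drives interneuron development in the ventral forebrain, read 8.04 to 8.41 in knockdown arrays, against 8.92 in control replicate 1 and 7.999 to 8.24 in the other controls.

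Meis2 and Pbx2 were also highest in control replicate 1. Meis2 read 8.38 to 8.91 in knockdown arrays, against 9.33 in that control and 8.54 to 8.75 in the other controls. Pbx2 read 10.90 to 11.19 in knockdown arrays, against 11.37 in that control and 10.70 to 10.93 in the other controls. The same control array was the highest of its group for fibroblast markers (8.46, against 8.06 to 8.17 in the other controls), mesoderm markers (8.91 against 8.56 to 8.64), trophoblast markers (9.71 against 9.36 to 9.68) and ESC markers (13.09 against 12.91 to 13.04), and the lowest for neural markers (8.85 against 8.91 to 9.10). Their part in the values of these genes was not tested. Msx2 and Dlx2 are named for this array, after their values had been seen.

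**Figure D5:**
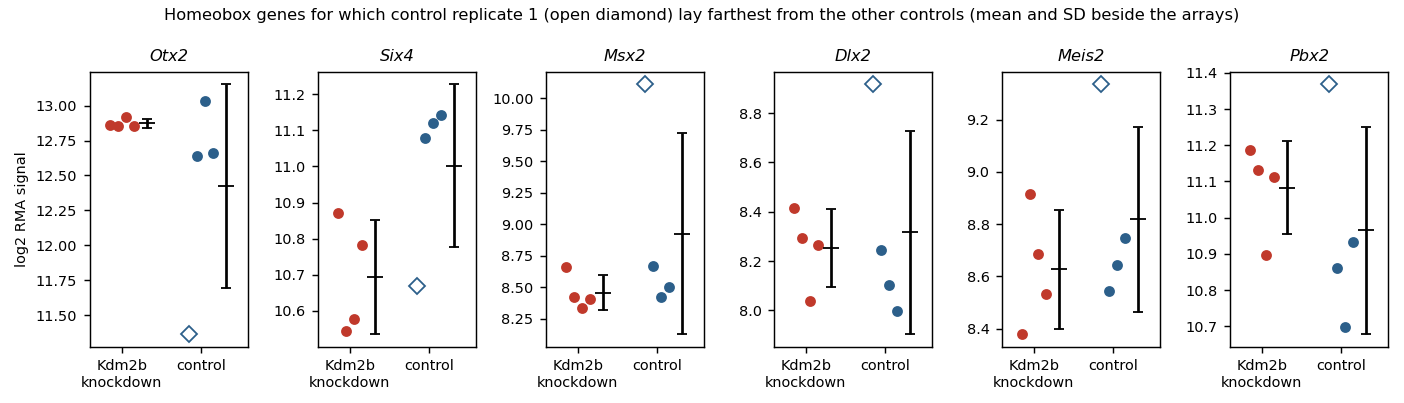
Log2 RMA signal of 6 homeobox genes on each array, with knockdown arrays in red left of control arrays in blue and bars for the mean and SD of 4 arrays. The open diamond is control replicate 1, which lies below the other 3 controls for Otx2 and Six4 and above them for Msx2, Dlx2, Meis2 and Pbx2.

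Homeobox genes outside these families were set beside them. Of 44 measured genes from other families (Pitx, En, Gbx, Tlx, Cdx and others), none met the gene rule in limma, with 8 above and 2 below control at an unadjusted p under 0.05 and a median log2 fold change of 0.11. The adjusted p alone was passed by 3, all of which rose. Dmbx1, a gene of the midbrain, rose by 0.47, Tlx1, which is needed for the spleen, by 0.45 and Cdx4, a regulator of posterior identity, by 0.26 (SE 0.08, 0.09 and 0.06, limma adjusted p = 0.0105, 0.0249 and 0.0304). Tlx1 passed only without knockdown replicate 1 or 3 or control replicate 2 among the fits with 1 array left out (0.0507 to 0.0757 in the others), and Cdx4 only without replicate 3 of the knockdown or replicate 1 of the controls (0.0543 to 0.0920 in the others).

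Some partners of homeodomain proteins met the gene rule, which 2.85% of all genes met in either direction. Of 10 genes for partners of LIM homeodomain proteins, the gene rule was met by 1, which fell, and not by 9 (median -0.01). An unadjusted p under 0.05 in limma was found for 4 below and 0 above control (13.6% and 16.8% of all genes). Ssbp2, which encodes a single-stranded DNA binding protein that protects the LDB cofactor, fell by 1.05 on the log2 scale, to 9.53 in knockdown against 10.58 in control cells (SE 0.11, limma adjusted p = 0.00234). The related Ssbp3 had a log2 fold change of -0.27 (SE 0.07, limma adjusted p = 0.0459), short of 1.5-fold, and missed the adjusted p without any 1 array (0.0571 to 0.128) or once replicate numbers were blocked (0.0790).

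None of the 6 partners of the proteins of the Six4 family met the gene rule in limma, while an unadjusted p under 0.05 was found for 2 above and 1 below control (median -0.06). Eya3, a transcriptional coactivator with phosphatase activity, fell by 0.39 (SE 0.06, limma adjusted p = 0.00916), short of 1.5-fold, and Eya2 had a log2 fold change of 0.23 (limma adjusted p = 0.115). Among 7 partners and relatives of TALE proteins none passed, while an unadjusted p under 0.05 was found for 1, above control (median 0.05). Pknox2 and Pbxip1 had the smallest p of these, at 0.28 and 0.11 (limma adjusted p = 0.120 and 0.310).

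Of 6 genes of the Groucho family, corepressors that many homeodomain proteins recruit, the gene rule was met by 2, which rose, and not by 4 (median 0.20). Tle6 rose by 0.75 and Tle5 by 0.72 on the log2 scale (SE 0.12 and 0.17, limma adjusted p = 0.0110 and 0.0352). Tle1, Tle2, Tle3 and Tle4 went both ways, at -0.11, 0.16, 0.24 and -0.31 (limma adjusted p of 0.0563 and above). Tle6 is best known for a maternal protein complex of the oocyte and Tle5 encodes a short member that lacks the repeat domain of the others. Tle5 was no longer called once any 1 array other than knockdown replicate 3 or control replicate 1 was left out (limma adjusted p between 0.0741 and 0.0918). Over passages 28 to 30 alone, Ssbp2, Tle6, Dmbx1 and Eya3 had adjusted p of 0.0598, 0.0667, 0.0975 and 0.146. Of the antisense transcripts listed, Dlx1as and Six3os1 were measured, at log2 fold changes of 0.09 and 0.11 (limma adjusted p = 0.460 and 0.479).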

How the data were processed

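Expression was measured in 8 E14 samples, 4 of knockdown and 4 of control cells, on Affymetrix Mouse Gene 1.0 ST arrays. The deposited values are log2 signals of 35556 probe sets, which the authors made with RMA in oligo 1.18.1 (background correction, quantile normalization and summary). The genome build behind the probe sets is not given in the sources used here. RMA compresses the changes of dim probe sets, and the number of arrays limits precision. GEO's platform annotation named 1 gene for 21789 probe sets, several for 1621 and none for 12146. Only probe sets with 1 gene name were used, with RefSeq symbols (GRCm38.p6), giving 19938 genes.

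Groups were compared with limma 3.58.1 in R 4.3.3 (lmFit and eBayes) on every probe set, and p-values were adjusted by Benjamini-Hochberg. After the study's methods, a gene was called when the adjusted p was under 0.05 in most of its probe sets and the most significant changed at least 1.5-fold. The fit was run on simulated data with independent noise on each array and planted changes larger than those of the homeobox genes. That run does not bear on changes of the size seen here or on shifts that arrays share. The main fit had no block, so its p-values, standard errors and intervals treat the samples as unpaired. An alternative fit took replicate numbers to pair the samples, as a block. This was done because deviations from the group means correlated at 0.239, 0.118, 0.355 and 0.222 for samples of the same number. Each was over the limit of 0.1, against -0.231 to 0.0747 for the others. The labels do not say what a number shares, and passages of the same number differ by 1 between the groups. Neighbouring genes were compared with an exact permutation test over samples and, as an alternative chosen after seeing the data, with exact sign flips within replicate pairs.

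The homeobox genes and all lists (partners of LIM, TALE and Six4-type proteins, Groucho corepressors, other homeobox genes, antisense transcripts and cell type markers) were chosen with earlier results of these data known. Genes were given values if they were called, had an unadjusted p under 0.05, did not overlap between groups, had the smallest p of their family, or were Otx2, Meis1, Meis2, Pbx2 or Pbx3. Of other lists, called genes or otherwise those with the smallest p were named. Msx2, Dlx2, Nkx2-1 and other members of neighbouring pairs were added after their values had been seen. Alternatives were another scaling, array weights, a trended and robust variance, 1 value per gene, leaving out dim probe sets, the replicate block, passages 28 to 30 alone and leaving out each array.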

Additional observations from a re-analysis of the deposited data

Results flagged for a closer look

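In 120 groups of 4 arrays (60 homeobox genes in knockdown and in control cells), 5 held an array whose gap to its nearest neighbour was over Dixon's 95% critical value, where chance alone marks about 1 in 20 groups. In control cells, 3 of the 5 were replicate 1. Msx2 read 10.11 there, against 8.42 to 8.67 on the other controls, Six4 read 10.67 against 11.08 to 11.14, and Irx4 read 8.08 against 8.16 to 8.18. Pbx4 read 9.20 in control replicate 3, against 9.28 to 9.29 on the other controls. Otx2 read 12.92 in knockdown replicate 3, against 12.85 to 12.86 on the other knockdown arrays.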

How the results depend on the processing

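The count of homeobox genes that met the gene rule was 2, and became 0 over passages 28 to 30 with passage as a block, 5 with no fold limit and 1 without replicate 1 of both groups (an alternative chosen after seeing the data). Leaving out 1 array at a time gave 1 to 2. The count with an adjusted p under 0.05 in limma was 5, and became 12 with array weights, 3 with dim probe sets left out (which removes Gsx1 and Gsx2 from the test), 0 over passages 28 to 30 and 3 without replicate 1 of both groups, with 2 to 10 when 1 array was left out. At an unadjusted p under 0.05 it was 12, and became 22 with array weights and 6 over passages 28 to 30, with 6 to 20 when 1 array was left out. The weights were 4.51 for knockdown replicate 2 and 0.353 to 1.57 for the other arrays. Over all genes, the gene rule called 770 with array weights and 160 over passages 28 to 30, against 569 in the main fit. The shares of all genes past the adjusted p alone were not counted in the alternative fits. With the replicate number as a block, 2 genes met the gene rule and 4 passed the adjusted p, Gsx1 being lost, and no other call on a homeobox gene changed under the block. The median log2 fold change of the 60 genes stayed above 0 under every alternative, at 0.0445 to 0.141. Over all genes the median was 0.0463 in the main fit and was not computed in the alternatives. The lowest values, 0.0445 without replicate 1 of both groups and 0.0462 over passages 28 to 30, lay just under that main-fit value. A rise beyond that of all genes is therefore not shown in every alternative.

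The log2 fold change of 15 of the 60 genes changed sign under at least 1 alternative (13 when 1 array was left out, 8 with array weights), and none of the 15 had an unadjusted p under 0.05 in limma with all arrays. Among the genes given with values these were Meis1, Meis2 and Dlx2. Meis1 was at 0.0653 with array weights and 0.00118 without replicate 1 of both groups, with -0.0616 to 0.0196 when 1 array was left out (above 0 without knockdown replicate 3, or at 0.00302 without control replicate 1). Meis2 was at 0.0554 with array weights and 0.0650 without replicate 1 of both groups, with -0.29 as its lowest value and -0.02 without control replicate 1. Dlx2 was at 0.0469 with array weights and 0.0830 without replicate 1 of both groups, with -0.17 to 0.14 when 1 array was left out (0.00784 without knockdown replicate 3). Other than where the construction shows it (fewer arrays or fewer genes), the cause was not tested. Having 4 arrays a group and 1 shRNA each limits all values, and dim signals can hide changes of low transcripts.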
